A study of Mus musculus with 4 samples.

Results

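The genes described here are the 10 AP-1, Egr1 and Nr4a early response genes, which are Fos, Fosb, Jun, Junb, Jund, Egr1, Atf3, Nr4a1, Nr4a2 and Nr4a3. They were chosen by symbol among the 32285 genes of the count tables, and each symbol had 1 row. They were followed in regulatory T (Treg) cells, the Foxp3-expressing T cells that restrain immune responses, taken from the visceral adipose tissue (VAT) of male mice. In the Srebf2 pool, the WT cells came from 4 Foxp3YFP-cre Srebf2WT/WT mice and the KO cells from 4 Foxp3YFP-cre Srebf2flox/flox mice, all 25 weeks old and at steady state. Both of these groups carry the Cre recombinase that Foxp3 drives, so the deletion is aimed at Foxp3-expressing cells. In the diet pool, 5 Foxp3thy1.1 PpargTdt mice had normal chow (NCD) and 5 of the same genotype had a high-fat diet (HFD) for 22 weeks, at an age of 23 to 27 weeks.

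Cells of each condition were sorted as live CD3+ CD4+ Foxp3+, labelled with a hashtag (an oligonucleotide-tagged antibody), and mixed 1:1 with the other condition of the pool before capture. A 5′ droplet chemistry then counted each captured RNA molecule once by its unique molecular identifier (UMI). The mice of a condition were pooled, so each condition is 1 sample. No difference below has a replicate check or a test, and a difference between conditions cannot be told apart from a difference between these sorts. Free RNA in the droplets of a pool is shared by its 2 conditions.

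Cells were kept at 500 or more genes, under 10% mitochondrial UMIs, 90% or more of hashtag UMIs from their own hashtag, and no UMI of Cd79a, Lyz2 or Cd8a, which mark B cells, myeloid cells and CD8 T cells. This left 3490 WT, 3956 KO, 4938 NCD and 4512 HFD cells, with 14010241, 16444262, 22200627 and 18543516 UMIs and medians of 3589.5, 3640.5, 3989 and 3193.5 UMIs per cell. Foxp3 was detected in 55.4% (WT), 56.7% (KO), 53.7% (NCD) and 40.5% (HFD) of cells, and Cd3e in 91.8% to 94.1%. Of the other Treg markers, Il2ra was in 75.2% (WT), 66.0% (KO), 77.7% (NCD) and 34.0% (HFD) of cells. Ranges over conditions were 79.3% to 87.3% for Ikzf2, 77.2% to 83.5% for Ctla4, 63.3% to 77.3% for Tnfrsf18 and 44.5% to 50.5% for Cd4. Srebf2 stood at 65.7 CPM (UMIs per 10⁶ UMIs of the summed cells) among WT and 3.95 CPM among KO cells. Summed stromal and adipocyte markers were at 3.21 (WT), 10.7 (KO), 1.44 (NCD) and 62.9 CPM (HFD), endothelial markers at 42.5, 48.5, 25.5 and 90.4 CPM, and erythroid markers at 357, 65.3, 72.0 and 243 CPM in the same order. What these transcripts add to the values below was not tested. The pools shared 135 cell barcodes, of 9036 and 11456.

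Early response genes are transcribed within minutes of a stimulus, without new protein synthesis, and their transcripts are short-lived. Fos, Fosb, Jun, Junb and Jund encode subunits of AP-1, a dimeric basic leucine zipper (bZIP) transcription factor, in which a Fos protein pairs with a Jun protein. Egr1 is a zinc finger factor induced through MAP kinase signalling, Atf3 is a stress-induced bZIP factor of the ATF and CREB family, and the Nr4a genes encode orphan nuclear receptors that report antigen receptor signalling in T cells and help to maintain Treg cells. In adipose tissue, Treg cells often carry ST2, the interleukin-33 receptor encoded by Il1rl1. The same genes are also known to be induced while a tissue is digested and cells are sorted, so that their level in a sorted cell can hold both what it had in the tissue and what it gained on the bench.

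Many early response genes are reached through a cyclic AMP response element (CRE), whose core is TGACG, bound by CREB and ATF proteins. RefSeq promoter sequences (GRCm38.p6) were matched for 9 of the 10 members, all except Egr1. In the 250 bases before the start site, TGACG was found on either strand in 7 of these 9, against 17.8% of 32851 promoters of the same length. The stretches below show 1 such site for each of the 7 genes, since they are what most of the members share in sequence, with the core (TGACG, or CGTCA where it lies on the other strand) in capitals.

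Fos: agttccgcccagTGACGtaggaagtccat
Fosb: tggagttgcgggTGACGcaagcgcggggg
Junb: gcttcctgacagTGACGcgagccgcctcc
Atf3: ttaatagcattaCGTCAgc
Nr4a1: cccctctccatgCGTCAcggagcgcttaa
Nr4a2: ccgccaggccggCGTCActggcagggcgc
Nr4a3: ctgtggcataaaTGACGtgccgagagagc

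Each is written 5′ to 3′ on the strand of its gene. They lie at chr12:85473812-85473840 (Fos, plus strand), chr7:19310089-19310117 (Fosb, minus), chr8:84978838-84978866 (Junb, minus), chr1:191183334-191183352 (Atf3, minus), chr15:101266794-101266822 (Nr4a1, plus), chr2:57124187-57124215 (Nr4a2, minus) and chr4:48045146-48045174 (Nr4a3, plus). All lie before the start site that the promoter table uses. Those of Fosb, Nr4a1 and Nr4a3 fall inside the span of the gene's full annotation, which includes transcripts with an earlier start, and exons of those transcripts were not looked up here. The core ends 62 bases before the start of Fos, 56 before Fosb, 102 before Junb, 3 before Atf3, 36 before Nr4a1, 196 before Nr4a2 and 143 before Nr4a3. Nr4a1, Nr4a2 and Nr4a3 each hold further copies in the same 250 bases, and Fos holds another.

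The full palindrome TGACGTCA, which contains the core, was in 0 of the 9 member promoters and in 1.55% of all promoters. The AP-1 site TGACTCA (4.46% of all promoters), the Nr4a site AAAGGTCA (1.34%) and the CArG box, the serum response factor site (1.47%), were also in 0 of 9. The Egr1 site GCGNGGGCG was in Fosb, Nr4a1 and Nr4a2, against 4.70% of all promoters. All motifs were searched on both strands, and a match or its lack is a description of these letters only. Jun and Jund hold no TGACG in this window. Jun and Jund were lower in HFD cells, as was Fos, and Nr4a2, which holds the core, was not. Whether the core bears on the response to diet was not tested.

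The 10 members together made up 1.85% (WT), 1.66% (KO), 1.68% (NCD) and 0.613% (HFD) of all UMIs. Levels of different genes may be set side by side here because a 5′ UMI count gives 1 count per captured molecule whatever the transcript's length, though capture can still differ between genes. Junb alone held 49.4% (WT), 49.4% (KO), 43.3% (NCD) and 57.1% (HFD) of the members' UMIs, and Jund came second in every condition with 18.3% to 19.8%. In WT cells the order of levels was Junb, Jund, Fos, Nr4a1, Jun, Fosb, Atf3, Nr4a3, Egr1 and Nr4a2, and 95% Poisson intervals of neighbours overlapped for Jun with Fosb and for Nr4a3 with Egr1. In KO cells Nr4a1 stood above Fos, and the overlapping neighbours were Jun with Fosb and Atf3 with Nr4a3. In NCD cells Egr1 took the fifth place, above Fosb and Jun, which overlapped. In HFD cells Nr4a3 took the fifth place, Nr4a2 overlapped Jun, Egr1 overlapped Fosb, and Atf3 was last.

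**Figure D1:**
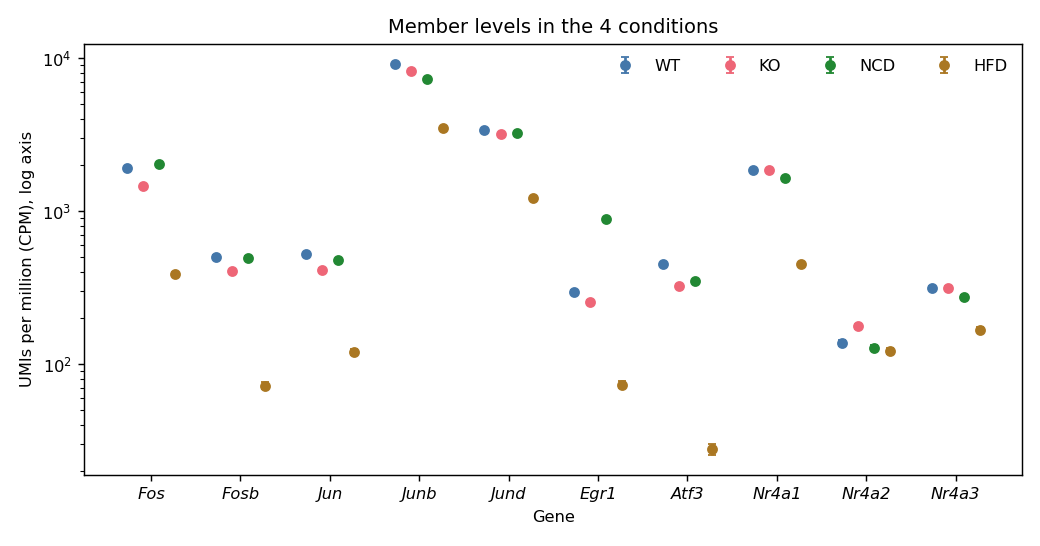
Level of each of the 10 genes in CPM (log axis) in WT, KO, NCD and HFD Treg cells, 1 pool of mice per condition, with exact 95% Poisson intervals that cover counting error only. The HFD points are the lowest of the 4 for every gene, and for Nr4a2 the intervals of HFD (122 CPM) and NCD (128 CPM) overlap.

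The first comparison asked how the members differ between Treg cells with and without Srebf2, the gene of the transcription factor SREBP2 that drives cholesterol synthesis. In KO cells Fos, Jun and Atf3 were modestly lower, Nr4a1 and Nr4a3 were level with WT, and Nr4a2 was higher. Genes were counted by a rule of size, which is not a test: the higher level had to exceed the lower by at least 25%, a log2 ratio of 0.32 in size. By it, 3 of the 10 members were lower in KO cells (Fos, Jun and Atf3) and 1 was higher (Nr4a2). Among the 9822 genes that reached 5 CPM in at least 1 of the conditions compared, 4.90% were lower and 5.41% were higher by the same rule. The median log2 ratio of KO to WT was -0.19 over the 10 members and 0.00448 over all genes.

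Of the Fos family, Fos was at 1910 CPM (WT) and 1448 CPM (KO), a log2 ratio of -0.40 (95% interval -0.43 to -0.37). Its relative Fosb was at 502 and 404 CPM, with a log2 ratio of -0.31 (-0.36 to -0.26), and at 1.24-fold it lay just outside the rule of size. Of the Jun family, Jun was at 520 and 414 CPM (log2 ratio -0.33, -0.38 to -0.28), or 1.26-fold lower and so just inside the rule. The family was graded, with Junb at 9150 and 8202 CPM (1.12-fold lower) and Jund at 3387 and 3195 CPM (1.06-fold lower).

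Atf3 had the lowest ratio of the 10, at 447 CPM (WT) and 326 CPM (KO) (log2 ratio -0.46, -0.51 to -0.40). Egr1 was at 295 and 254 CPM, or 1.16-fold lower. The Nr4a receptors did not follow the AP-1 genes. Nr4a1, the family member most used as a reporter of antigen receptor signalling, was at 1854 and 1864 CPM, with an interval of its log2 ratio from -0.02 to 0.03. Nr4a3 was at 312 and 314 CPM. Nr4a2 was at 137 CPM (WT) and 176 CPM (KO), 1.28-fold higher (log2 ratio 0.36, 0.28 to 0.45). The RefSeq table lists LOC105244150 as overlapping Nr4a2, so some of its UMIs may be uncertain. The count of 1 higher member became 0 when cells were thinned to equal depth, where 810 of 9848 genes were higher.

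The second comparison asked how the members differ between Treg cells of mice on chow and on a high-fat diet. All members except Nr4a2 were lower in HFD cells, from 1.64-fold for Nr4a3 to more than 12-fold for Egr1 and Atf3. By the rule of size 9 of 10 members were lower and 0 were higher, while 15.8% of all 10024 genes were lower and 23.6% were higher. The median log2 ratio of HFD to NCD was -1.93 over the members and 0.08 over all genes.

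The Fos family was among the lowest. Fos stood at 2015 CPM in NCD cells and 388 CPM in HFD cells, 5.19-fold lower (log2 ratio -2.38, -2.41 to -2.34). Fosb was at 496 and 72.2 CPM, 6.87-fold lower (-2.78, -2.86 to -2.70). In the Jun family the order was again graded. Jun was at 478 and 120 CPM (3.98-fold lower), Jund at 3258 and 1213 CPM (2.69-fold lower) and Junb at 7277 and 3501 CPM (2.08-fold lower). In both comparisons, then, Jun had the lowest ratio of the 3 Jun genes, and Fos and Fosb lay below Junb and Jund.

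Egr1 was at 891 CPM (NCD) and 73.2 CPM (HFD), 12.2-fold lower (log2 ratio -3.60, -3.69 to -3.53). Its NCD level also stood apart from the WT and KO levels of 295 and 254 CPM. The pools differ in mouse genotype and experiment, so this gap cannot be told apart from the pool. Atf3 was at 347 and 27.7 CPM, 12.5-fold lower (-3.65, -3.78 to -3.52). What Atf3 remained in HFD cells sat in few of them, since the 45 cells with the most Atf3 UMIs, 1% of the condition, held 66.7% of its UMIs, against 17.8% in the top 1% of NCD cells. For Junb the same shares were 6.13% and 4.16%.

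Nr4a1 was at 1646 CPM (NCD) and 450 CPM (HFD), 3.65-fold lower (log2 ratio -1.87, -1.90 to -1.84). Nr4a3 was at 274 and 167 CPM (-0.71, -0.78 to -0.65). Nr4a2 was at 128 and 122 CPM, and the interval of its log2 ratio, -0.15 to 0.01, held 0. The 3 receptors of this family thus differed among themselves by a wide margin in the same cells.

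Within each pool, the share of cells with a UMI went the same way as the level for Fos, Atf3 and Egr1. After each cell was thinned to 2000 UMIs, which leaves out 307 WT, 311 KO, 286 NCD and 711 HFD cells with fewer, Fos was found in 69.7% (WT), 60.6% (KO), 60.7% (NCD) and 28.7% (HFD) of cells (78.4%, 71.1%, 69.4% and 38.0% before thinning). Atf3 was found in 27.2%, 21.1%, 20.3% and 3.10% (32.7%, 26.4%, 25.4% and 4.19% before thinning). Egr1 was found in 23.1%, 19.4%, 35.6% and 8.60% (30.3%, 26.0%, 40.4% and 13.1% before thinning). Junb was in at least 90.4% of cells in every condition, so its difference lay in the number of UMIs per cell. Nr4a2 was found in 13.2% of NCD and 14.7% of HFD cells. No cell type of these pools is known to lack these genes, so the share that free RNA alone would give was not measured.

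A thinned WT cell held a median of 36 member UMIs, a KO cell 30, an NCD cell 30 and an HFD cell 10. At least 5 of the 10 members were found in 66.0% (WT), 55.7% (KO), 58.0% (NCD) and 18.8% (HFD) of cells. All 10 were found together in 10 WT, 12 KO and 21 NCD cells and in 0 of 3801 HFD cells, which allows a share of up to 0.0789%. No member at all was found in 0.189% (WT), 0.274% (KO), 0.838% (NCD) and 2.66% (HFD) of cells. The cell at the 25th percentile held 12 member UMIs in NCD and 5 in HFD, and the cell at the 95th percentile 81 and 39, so the gap was present over the whole distribution.

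**Figure D2:**
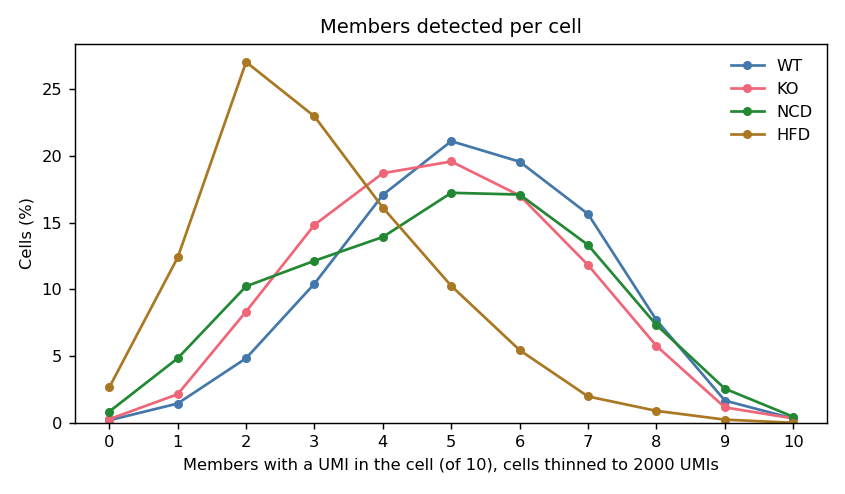
Number of the 10 genes with a UMI in a cell (horizontal axis) and the percent of cells with that number (vertical axis), for cells thinned to 2000 UMIs. The WT, KO and NCD curves peak at 5 members, and the HFD curve peaks at 2, with 27.0% of its cells.

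For most pairs, members were found in the same cells more often than the product of their shares. Over the 4 conditions, cells with both Fosb and Atf3 were 1.32 to 2.70 times as frequent as the product of the 2 shares, and cells with both Fos and Fosb 1.20 to 2.34 times. For Fos with Jun the ratio was 1.09 to 1.35. The upper value of each of these ranges came from HFD cells, where the shares were lowest. Such a ratio cannot exceed 1 divided by the larger share, so it does not rank pairs or conditions with unlike shares. Nr4a2 with Fos (from 0.984) and Nr4a2 with Jun (from 0.956) were the pairs with a ratio below 1 in some condition. Within a condition, Pearson's r across thinned cells between a member's log level and that of the other 9 members summed was highest for Junb, at 0.56 (3183 WT cells), 0.61 (3645 KO cells), 0.70 (4652 NCD cells) and 0.55 (3801 HFD cells). It was lowest for Nr4a2 in WT, KO and NCD cells, at 0.09, 0.10 and 0.12. In HFD cells it was lowest for Jun, at 0.14, and stood at 0.21 for Nr4a2. Junb also had the highest level in every condition, and Nr4a2 the lowest in WT, KO and NCD cells. How far r follows the level of a gene was not tested. These cells share a library and a depth, and the values are descriptions.

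ST2 marks the Treg state that is typical of visceral fat, and its share differed between conditions, so the members were next set out by Il1rl1. Il1rl1 was detected in 71.0% (WT), 58.7% (KO), 78.1% (NCD) and 17.6% (HFD) of cells, and in 59.6%, 48.1%, 67.3% and 14.6% after thinning. Other markers of this state were also found in fewer HFD than NCD cells. Klrg1 was in 83.6% (NCD) and 15.6% (HFD), Gata3 in 77.2% and 41.4%, Areg in 64.9% and 33.5% and Pparg in 21.4% and 3.04%. Il1rl1-zero cells were shallower, with medians of 3046 UMIs against 3802 in WT and 3091 against 3772 in HFD cells, and some of them may carry Il1rl1 RNA that was not captured.

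Il1rl1-positive cells held more of nearly every member. By the rule of size, 9 of 10 members were higher in Il1rl1-positive than in Il1rl1-zero cells of WT, KO and NCD, and all 10 were in HFD, where 12.4%, 10.7%, 11.6% and 14.5% of all genes were higher. The members' median log2 ratios were 0.68, 1.04, 1.24 and 1.17, and those of all genes -0.08, -0.11, -0.13 and -0.03. Atf3 had the largest ratio in all 4 conditions, from 3.24-fold in WT to 15.2-fold in HFD cells, and after thinning its ratios were 2.03-fold (WT), 3.00-fold (KO), 2.02-fold (NCD) and 10.2-fold (HFD). Nr4a2 was the exception in WT, KO and NCD cells, with log2 ratios of -0.29, 0.03 and 0.06, while in HFD cells it was 1.59-fold higher in the Il1rl1-positive cells. After thinning, 8 members of WT were higher and the counts in KO, NCD and HFD were 9, 9 and 10. Of all genes in thinned cells, 1506 of 9982 (WT) and 1559 of 9969 (KO) were higher. For NCD and HFD these were 1002 of 9742 and 2173 of 9951.

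Within Il1rl1-positive cells the KO differences were small. By the rule of size 0 members were lower and 1, Nr4a2, was higher, where 6.45% of all genes were lower and 5.40% were higher. The median log2 ratio of the members was -0.04, and that of all genes -0.01. Fos was at 2091 CPM (WT) and 1751 CPM (KO) (1.19-fold lower), and Atf3 at 539 and 450 CPM (1.20-fold lower). Junb, at 9809 and 9470 CPM, and Egr1, at 339 and 334 CPM, were nearly level. Nr4a1 was at 2079 and 2339 CPM, 1.12-fold higher.

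Within Il1rl1-zero cells 5 members were lower in KO cells by the rule of size and 0 were higher, where 10.1% of all genes were lower and 11.2% were higher. The 5 were Fos, at 1361 CPM (WT) and 890 CPM (KO), Fosb, Jun, Egr1, at 160 and 106 CPM, and Atf3, at 166 and 97.9 CPM. The members' median log2 ratio was -0.35, and that of all genes 0.02. Nr4a1, at 1169 and 992 CPM, was 1.18-fold lower here. Whether the Srebf2 effect differs between Il1rl1-positive and Il1rl1-zero cells could not be tested with 1 sample per condition. With both groups weighted equally in each condition, the log2 ratio of KO to WT was -0.39 for Fos, -0.31 for Jun and -0.37 for Atf3. On that weighting 2 members (Fos and Atf3) were lower and 0 higher. It was computed for the members only, so this count has no background of all genes.

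Within Il1rl1-positive cells of the diet pool, 8 members were lower in HFD cells by the rule of size and 1 was higher, where 14.5% of all genes were lower and 23.4% were higher. The median log2 ratio of the members was -1.07, and that of all genes 0.08. Fos was at 2231 CPM (NCD) and 844 CPM (HFD) (2.64-fold lower), Fosb at 556 and 174 CPM, and Jun at 529 and 222 CPM. Egr1 kept the largest gap, at 1020 and 127 CPM, 8.04-fold lower (log2 ratio -3.01, -3.14 to -2.88, and -2.54 after thinning). Atf3 was at 398 and 107 CPM, or 3.70-fold lower. Nr4a2, at 129 and 173 CPM, was 1.34-fold higher, and Nr4a3, at 303 and 269 CPM, was 1.12-fold lower. Under TMM or median-of-ratios scaling, which move all log2 ratios here by -0.12 and -0.11, the count of higher members was 0. The share of all genes that were higher was not computed under these scalings.

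Within Il1rl1-zero cells 8 members were lower in HFD cells and 0 were higher, where 18.8% of all genes were lower and 14.8% were higher. The median log2 ratio of the members was -1.23, and that of all genes -0.03. Fos was at 933 CPM (NCD) and 270 CPM (HFD) (3.46-fold lower) and Egr1 at 242 and 59.3 CPM (4.08-fold lower). The log2 ratio of Egr1, -2.03 here, was -3.14 after thinning, so that its gap was smaller than in Il1rl1-positive cells before thinning and larger after it. Atf3 was at 7.06 CPM in HFD cells (5.77 to 8.55), 12.7-fold below NCD (log2 ratio -3.67). With no filter on genes of other cell types the log2 ratio of Atf3 was -1.41 and that of Egr1 -1.63. Nr4a3, at 134 and 141 CPM, had a log2 ratio of 0.07 (-0.07 to 0.22), and of -0.40 after thinning.

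**Figure D3:**
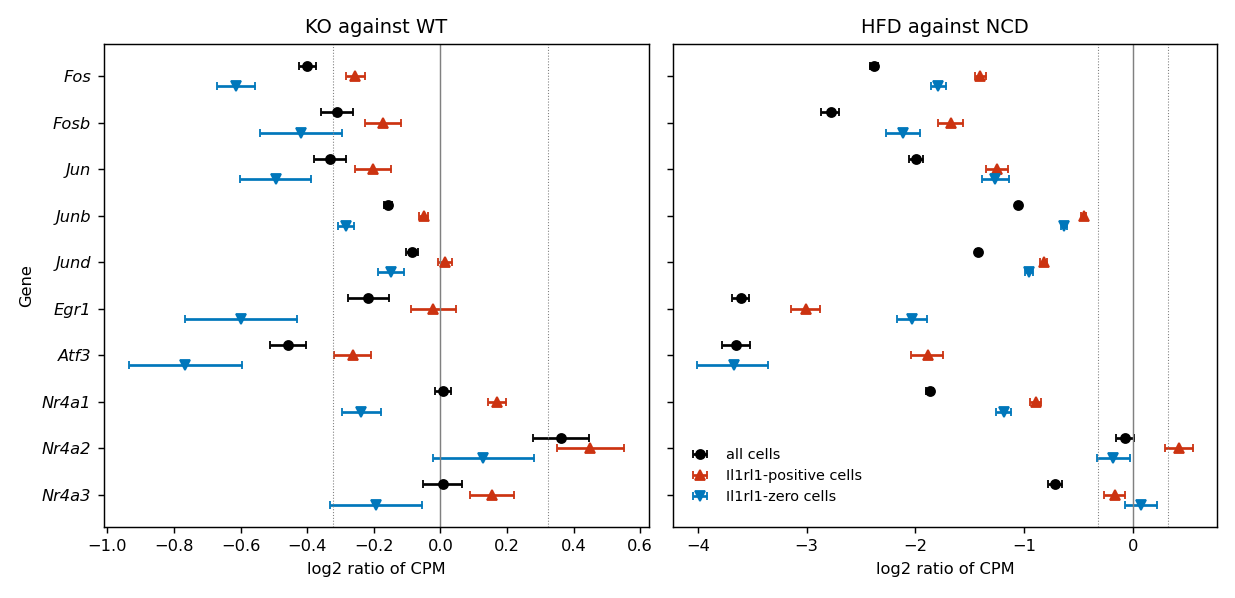
Log2 ratio of CPM for each gene in KO against WT (left) and HFD against NCD (right), in all kept cells (circles), Il1rl1-positive cells (upward triangles) and Il1rl1-zero cells (downward triangles), with exact 95% binomial intervals; dotted lines mark a difference of 25%, and the horizontal axes differ in range. On the right the circles lie left of 0 for every gene, with an interval that reaches 0 for Nr4a2, and most points of the Il1rl1 groups lie nearer to 0 than those of all cells.

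The HFD ratio of all cells thus lay outside both Il1rl1 groups for Fos, Fosb, Jun, Junb, Jund, Egr1, Nr4a1 and Nr4a3, since Il1rl1-positive cells carry more of these genes and were fewer in HFD. With the 2 groups weighted equally in each condition, 8 members were lower and 0 higher, and the median log2 ratio was -1.11 in place of -1.93. This weighting was computed for the members only, so the count and median have no background of all genes. On that weighting the log2 ratios were -1.51 for Fos, -1.78 for Fosb, -2.76 for Egr1, -2.09 for Atf3, -0.97 for Nr4a1 and -0.09 for Nr4a3. A smaller share of Il1rl1-positive cells and lower CPM of most members within each Il1rl1 group are thus both present in the HFD sum. Both rest on detection of Il1rl1 alone, which varies with depth.

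The members were also followed over the number of Il1rl1 UMIs in thinned cells. Their summed level was 16104, 21081, 22337 and 20577 CPM in WT cells with 0, 1, 2 and 3 or more Il1rl1 UMIs. In KO cells it was 13400, 21044, 22137 and 20435 CPM, so that KO and WT lay closest where Il1rl1 was found. In NCD cells the sums were 12664, 18541, 19513 and 19734 CPM, and in HFD cells 5676, 11508, 14561 and 15244 CPM. The gap between diets narrowed along this order, with a median log2 ratio of -1.64, -0.89, -0.86 and -0.49 over the members.

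The genes narrowed unequally. Fos was at 1446 and 312 CPM in NCD and HFD cells without an Il1rl1 UMI, and at 2283 and 1584 CPM in cells with 3 or more (log2 ratio -0.53). Junb was at 8572 and 7698 CPM in the latter, and Atf3 at 391 and 256 CPM. Egr1 narrowed less, with log2 ratios of -3.14, -2.56, -2.50 and -2.49 along the same order, and levels of 1000 CPM (NCD) and 176 CPM (HFD) in cells with 3 or more Il1rl1 UMIs. The HFD cells with 3 or more Il1rl1 UMIs numbered 131, against 1200 NCD cells.

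**Figure D4:**
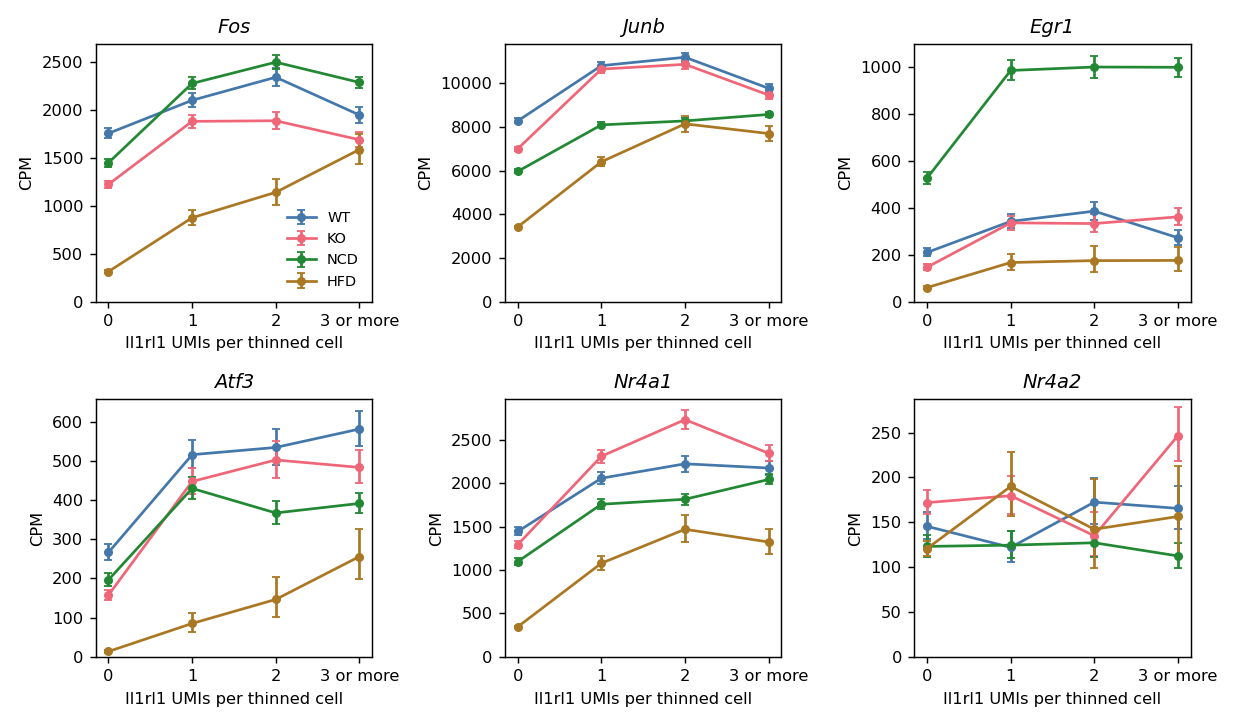
Level in CPM of 6 of the genes (linear axes from 0, 1 panel per gene) in thinned cells with 0, 1, 2 and 3 or more Il1rl1 UMIs, for the 4 conditions, with exact 95% Poisson intervals. Fos and Junb in HFD cells approach the NCD curve from left to right, the HFD Egr1 curve stays below 200 CPM, and Nr4a2 has no common slope.

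Bench handling is a known inducer of the members and of the heat shock genes Hspa1a and Hspa1b, and conditions were handled apart until they were mixed. Both heat shock genes differed in the same direction as most members. Hspa1b was at 370 CPM (WT), 276 CPM (KO), 548 CPM (NCD) and 92.3 CPM (HFD), and Hspa1a at 159, 126, 285 and 52.3 CPM. Of 18 heat shock genes, 7 were lower and 0 higher in HFD cells by the rule of size, with a median log2 ratio of -0.25, where 15.8% of all genes were lower and 23.6% were higher. The log2 ratios of HFD to NCD were -2.45 for Hspa1a, -2.57 for Hspa1b and -0.67 for the co-chaperone Dnaja1. The highest 3 of the list were Hspe1 (0.29), Hspd1 (0.27) and Dnajb4 (0.27). In KO against WT, 3 of the 18 were lower (Bag3 at -0.51, Hspa1b at -0.43 and Hspa1a at -0.34) and 2 higher (Hspb1 at 0.52 and Hsph1 at 0.33), where 4.90% and 5.41% of all genes were, and Dnaja4 was at 0.25.

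Within a condition, cells with heat shock UMIs were not the cells with the most member UMIs. The members' summed level was 18288 CPM in the 3039 thinned NCD cells without an Hspa1a or Hspa1b UMI and 14811 CPM in the 1091 with 2 or more. The same sums were 6917 and 5919 CPM in HFD, 19913 and 17456 CPM in WT, and 17851 and 14893 CPM in KO cells. Fos and Jun ran against the sum in every condition, with Fos at 1930 CPM in NCD cells without such a UMI and 2453 CPM in those with 2 or more. Egr1 did so in HFD cells, at 73.7 and 96.5 CPM, and Jund was near level in KO cells, at 3353 and 3383 CPM. Among cells without an Hspa1a or Hspa1b UMI, the median log2 ratio of HFD to NCD was -1.85 over the members and that of KO to WT was -0.17. Among cells with 2 or more, the medians were -1.68 and -0.22. Over all thinned cells the medians were -1.81 and -0.20, so the medians were about as large where these transcripts were not found. Single members varied more in KO against WT. The log2 ratio went from -0.37 without such a UMI to -1.39 with 2 or more for Atf3, from -0.03 to -0.80 for Nr4a3 and from 0.05 to -0.51 for Nr4a1, while for Fos it went from -0.45 to -0.12. Whether handling contributed was not tested, since a cell without heat shock UMIs may still have been affected.

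A small number of B cell gene-bearing cells came through the same sorts. Cells with UMIs of at least 3 of 5 B cell markers and no Foxp3 UMI numbered 69 (WT), 40 (KO), 207 (NCD) and 96 (HFD), a set chosen after the data had been seen. In these cells Fos was at 457 CPM (NCD) and 236 CPM (HFD) (log2 ratio -0.95, -1.28 to -0.65), and Jun was at 153 and 85.0 CPM. Egr1 was at 131 and 34.0 CPM (-1.90, -2.84 to -1.16) and Atf3 at 67.0 and 14.6 CPM (-2.09, -3.68 to -1.03). Junb, at 1591 and 1713 CPM, and Jund, at 1348 and 1205 CPM, were near level, and Nr4a1 was at 372 and 309 CPM. Hspa1b was at 280 and 194 CPM, and Hspa1a at 159 and 68.0 CPM (-1.20, -1.84 to -0.66). The median log2 ratio of the 10 members was -0.52 in these cells, and that of all genes was not computed.

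The B cell gene-bearing cells of the diet pool thus shared the direction of Fos, Jun, Jund, Egr1 and Atf3 with Treg cells at smaller size, and had interval bounds on both sides of 0 for Fosb, Junb, Nr4a1, Nr4a2 and Nr4a3. They are not free of T cell RNA, since Cd3e was at 212 CPM (NCD) and 226 CPM (HFD), and their medians of 6256 and 3389.5 UMIs differ. What handling, tissue state and T cell RNA each add to these values cannot be told apart. In the 69 WT and 40 KO cells 8 of the 10 members had a log2 ratio below 0, with a median of -0.50. The share of all genes below 0 was not computed for these cells. Egr1 was at -2.96, Fos at -1.22 and Junb at -0.68, while Jun was at 1.01, Atf3 at 0.36, Hspa1b at 0.77 and Hspa1a at 0.74.

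Myeloid gene-bearing cells, chosen in the same way after the data had been seen, numbered 51 (NCD) and 20 (HFD), with medians of 10695 and 29057.5 UMIs. Of the 10 members 9 were below 0, and the median log2 ratio was -2.21, against -1.93 in the kept Treg cells. The share of all genes below 0 and their median were not computed for these cells. What depth and cell composition add to the members' values was not tested. Fos was at 1153 CPM (NCD) and 553 CPM (HFD) (-1.06), Junb at 2562 and 695 CPM (-1.88), Egr1 at 316 and 53.9 CPM (-2.53) and Nr4a1 at 540 and 53.9 CPM (-3.30). Atf3 went the other way, at 291 and 527 CPM (0.86). The heat shock genes had log2 ratios of -4.32 (Hspa1a) and -4.26 (Hspa1b), and Cd3e, at 164 and 40.1 CPM, of -2.02.

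**Figure D5:**
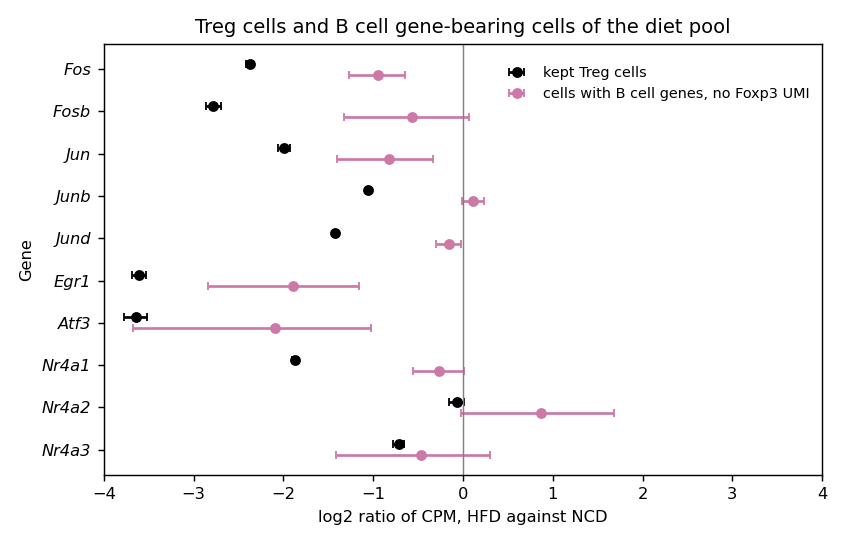
Log2 ratio of CPM, HFD against NCD, for each gene in the kept Treg cells (black) and in cells with B cell genes and no Foxp3 UMI (pink; 207 NCD and 96 HFD cells), with exact 95% binomial intervals. The pink points of Fos, Jun, Egr1 and Atf3 lie left of 0 and right of the black ones, and those of Junb and Jund lie near 0.

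Among 5527 other genes at 20 CPM or more in all 4 conditions, those whose level across thinned cells was most like the members' sum were ranked by the lowest Pearson's r of the 4 conditions. The first was Nfkbia, the inhibitor of NF-kB (r from 0.52 to 0.70), followed by Gadd45b, Dusp1, a MAP kinase phosphatase, Zfp36, an mRNA decay factor, and Areg, the growth factor amphiregulin (0.45 to 0.59). Nfkbid, Tnfaip3, Ppp1r15a, Csrnp1 and Ier2 completed the 10. Of these 10, 9 were on the early response list and Areg was not. Of the first 50, 18 were on that list, which held 41 of the 5527 genes, and 0 were heat shock genes, of which 16 were compared.

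The wider early response list, 55 genes other than the members, was less uniform. In HFD cells 28 of 51 measured genes were lower and 15 higher by the rule of size, with a median log2 ratio of -0.66, where 15.8% of all genes were lower and 23.6% were higher. Those farthest below were Ier3 (-2.42), Zfp36 (-2.36) and Gadd45b (-1.79), and those farthest above were Bhlhe40 (2.00), Socs3 (1.21) and the phosphatase gene Dusp4 (1.14). In KO cells 4 of 52 were lower and 3 higher, with a median of -0.03, shares near the 4.90% and 5.41% of all genes. These included Plk2 (-0.46), Rhob (-0.43) and Klf6 (-0.38) below, and Bhlhe40 (0.82), Dusp10 (0.41) and Egr2 (0.37, with only 4.57 and 5.90 CPM) above. Bhlhe40, a transcriptional repressor, was thus the highest of the list in both comparisons.

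Other bZIP factors can pair with or compete with the AP-1 members. In HFD cells 5 of 24 were lower and 4 higher, with a median log2 ratio of 0.01, not far from the 15.8% and 23.6% of all genes. Jdp2, a repressor of AP-1, was at 29.0 CPM (NCD) and 7.93 CPM (HFD) (-1.87), Atf6 had a log2 ratio of -0.96 and Fosl2 of -0.80. Bach2, a repressor linked to resting T cells, was at 28.2 and 132 CPM (2.22), Batf at 109 and 181 CPM (0.74) and Cebpb at 244 and 310 CPM (0.34). In KO cells, where 4.90% of all genes were lower and 5.41% higher, 0 of 25 were lower and 1 was higher, Bach2, at 27.0 CPM (WT) and 50.8 CPM (KO) (0.91). Cebpb (0.22), Nfe2l2 (0.17), Nfil3 (-0.10), Xbp1 (-0.21) and Atf6 (-0.22) lay within the rule.

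Antigen receptor response genes did not share one direction. In HFD cells 8 of 20 were lower and 9 higher, against 15.8% and 23.6% of all genes, with a median log2 ratio of 0.27. Egr3 (-1.68), Cd69 (-1.52), an early activation marker, and Irf4 (-1.42) were farthest below, and the costimulatory receptor Icos (1.49), Tnfrsf9 (1.31) and Egr2 (1.13) were farthest above. Egr1 and Egr3 thus lay on the other side of 0 from Egr2, at 3.07 to 13.2 CPM for Egr2 and Egr3. In KO cells 0 of 20 were lower and 1 was higher, Egr2, against 4.90% and 5.41% of all genes. Cd69 (-0.32), Cd44 (-0.31) and Irf4 (-0.29) had the lowest ratios there, and Tigit (0.31) and Icos (0.28) were the next above.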

How the data were processed

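Values were UMI counts, unnormalised as deposited, with hashtags as further rows of each matrix. The authors counted them with Cell Ranger against mm10, version 7.0.1 per the submitters' processing notes, and 7.1.0 (Srebf2 pool) or 7.0.1 (diet pool) per the file headers. Barcode and gene names, deposited as text, served to match rows. The sources used here do not give further filters by the authors.

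Counts were summed over kept cells of each hashtag condition and divided by the summed total (CPM), with exact Poisson intervals. Log2 ratios had 0.5 added to each sum, with exact binomial (Clopper-Pearson) intervals, all at 95% and covering counting error only. With 1 sample per condition there was no test. Doublets of 2 conditions were removed by the hashtag share, and those within a condition remain. The background was formed by genes that reached 5 CPM in at least 1 condition of a comparison. Thinning to 2000 UMIs used seed 1. Named genes were all members, up to 3 genes farthest below and above equal levels per list, and the 10 most like the members. Members and lists were chosen with earlier results of these data known. Ratios and intervals were tested on simulated data. Tools were Python 3.11.15, scipy 1.17.1, R 4.3.3, edgeR 4.0.16 (TMM factors) and DESeq2 1.42.0 (size factors). Sequences came from RefSeq promoters of GRCm38.p6, the assembly also called mm10.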

Additional observations from a re-analysis of the deposited data

Results flagged for a closer look

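There were 3 members with KO or HFD ratios on opposite sides of 0 in Il1rl1-positive and Il1rl1-zero cells, with both intervals excluding 0. These differences were not tested. The rule was applied to the members only, so this count has no background of all genes. Nr4a1 in KO against WT had log2 ratios of 0.17 and -0.24, a difference of 0.41. Nr4a3 in KO against WT had 0.15 and -0.19, a difference of 0.35, and after thinning the intervals in both groups held 0 (0.11 and -0.14). Nr4a2 in HFD against NCD had 0.42 and -0.19, a difference of 0.61. In Il1rl1-zero cells this Nr4a2 ratio was -0.03 after thinning (-0.21 to 0.15) and 0.13 with no filter on genes of other cell types.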

How the results depend on the processing

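No paired analysis was possible because each condition is 1 pool. Of 800 member ratios recomputed over 14 alternatives (13 within Il1rl1 groups), 24 had the other sign, 0 of them past the rule of size in the reported analysis. The count of members lower in HFD was 7 to 9 throughout. After thinning, 1715 of 9898 genes were lower in all cells. In Il1rl1-positive and Il1rl1-zero cells these were 1842 of 9849 and 1936 of 9925. For the other alternatives the counts of members have no background of all genes.

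The medians below are log2 ratios. For HFD against NCD (all, Il1rl1-positive and Il1rl1-zero cells in turn), they were -1.80, -0.99 and -0.92 with no filter on other cell types, where 1 member was higher in Il1rl1-zero cells, -1.81, -0.78 and -1.64 after thinning, -1.75, -0.89 and -0.98 as a mean over cells, and -1.85, -0.82 and -1.61 without heat shock UMIs. With all listed markers of other cells at 0 they were -1.80 (all) and -0.87 (positive). With a Foxp3 UMI required they were -1.21 (positive) and -1.35 (zero). TMM and median-of-ratios scaling move all HFD ratios by -0.10 and -0.12 in all cells. TMM scaling gave -2.03 and -1.19, and median-of-ratios scaling -2.05 and -1.18 (all and positive), with 0 members higher in Il1rl1-positive cells under both. Equal Il1rl1 weights gave -1.11.

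For KO against WT, the median in Il1rl1-positive cells was 0.0300 with all markers at 0, 0.00546 after thinning, 0.00504 as a mean over cells, and 0.0411 without heat shock UMIs. In Il1rl1-zero cells it was -0.47 with a Foxp3 UMI required and -0.44 without heat shock UMIs. The count higher in all cells was 0 after thinning and with equal weights. Of the other 848 recomputed values, 519 stayed within the error of the reported value and 329 moved, and the cause was not tested. The spread between mice is unknown.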
